A study of Mus musculus with 6 samples.

Results

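Keratins listed for the suprabasal, differentiating cells of interfollicular epidermis were followed in RNA-Seq data of mouse top lip. There were 3 libraries labelled KO and 3 labelled WT. The 8 genes, of 26814 in the count table, were Krt1, Krt2, Krt10, Krt76, Krt77, Krt78, Krt79 and Krt80. They were listed as suprabasal keratins, but the sites named below for Krt76 and Krt79, which may not be their only ones, lie outside interfollicular epidermis. Krt2 was also selected on its measured value in this same comparison, a very low level in the KO libraries, so its values are given as a description with no test. All mice were adult females of 2 to 6 months on a C57BL/6J background. KO mice were homozygous for Gtf2ird1 tm1Hrd, a germline allele made to inactivate a transcription factor of the TFII-I family, and WT mice carried the intact gene. Each library came from 1 mouse, and whole lip was used, so less RNA per cell and fewer cells of a type cannot be told apart.

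Keratins are the intermediate filament proteins of epithelia, and each filament is built from pairs of an acidic type I and a basic type II chain. Basal keratinocytes make Krt5 and Krt14, and on leaving the basal layer they switch to the type II keratin Krt1 and the type I keratin Krt10. Krt2, another type II keratin, is added later, in the upper spinous and granular layers, where it also pairs with Krt10. Of the 8 genes only Krt10 is type I.

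Total counts per library ran from 20164081 to 29491767. Levels are given as CPM, the counts relative to each library's TMM-scaled total. Genes that reached 1 CPM in 3 or more libraries, 15009 in all, were compared with edgeR's quasi-likelihood F test, Benjamini-Hochberg adjusted over all of them. At an adjusted p under 0.05, the KO libraries were higher in 4.38% of tested genes and lower in 2.09%, and in 31.5% the values of the genotypes did not overlap. Gtf2ird1 itself had 70.2 to 78.2 CPM in the WT libraries and 144 to 166 CPM in the KO libraries. The targeted gene was thus higher where its label implies loss, and directions below are those of the labels. A count over a whole gene does not tell whether its reads come from a disrupted allele. The study's methods state that tail biopsies were collected to check the genotyping. The basal keratins Krt5 and Krt14 stood between 3488 and 5372 CPM in all 6 libraries, so the defining markers of keratinocytes were present throughout.

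The stretch of Krt2 that the study's RT-qPCR primers bracket is shown first. It locates the transcript whose level set Krt2 apart from the other tested members. Krt2 lies on the minus strand of chromosome 15 (GRCm38, 101810689 to 101818169) with 9 exons. The amplicon runs from exon 6 to exon 7 (chr15:101813112-101814004, minus strand, intron left out), covers bases 1313 to 1561 of the transcript, and is coding sequence. The capitals mark the primer sites, and 0 other annotated genes held an exact match to either primer.
Krt2 amplicon: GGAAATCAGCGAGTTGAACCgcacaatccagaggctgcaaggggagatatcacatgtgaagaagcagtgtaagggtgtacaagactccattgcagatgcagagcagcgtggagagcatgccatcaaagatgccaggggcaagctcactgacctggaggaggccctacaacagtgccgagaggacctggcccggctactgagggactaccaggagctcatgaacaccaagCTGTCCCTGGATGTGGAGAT

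The 250 bases before the start of Krt2 and of its partner Krt10 are shown because the ratio of the pair differed between genotypes. They come from RefSeq on GRCm38.p6, and capitals mark a TATA-type motif, spelled TATANA.
Krt2, chr15:101818170-101818419, minus strand: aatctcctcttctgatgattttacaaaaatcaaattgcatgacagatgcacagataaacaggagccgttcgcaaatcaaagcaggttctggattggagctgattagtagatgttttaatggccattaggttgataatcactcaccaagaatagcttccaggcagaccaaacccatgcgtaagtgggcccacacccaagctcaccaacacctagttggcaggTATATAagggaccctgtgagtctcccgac
Krt10, chr11:99389365-99389614, minus strand: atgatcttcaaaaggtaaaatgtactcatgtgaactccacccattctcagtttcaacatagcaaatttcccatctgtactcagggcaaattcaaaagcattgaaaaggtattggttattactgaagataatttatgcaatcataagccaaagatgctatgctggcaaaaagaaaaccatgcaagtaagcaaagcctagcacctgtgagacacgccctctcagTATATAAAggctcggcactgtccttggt
The first base of the motif lay 29 bases before the start in Krt2, and 28 and 26 bases before it in Krt10, where 2 matches overlap (2 more lie after its start). Windows of 250 bases before and 50 after the start were searched on both strands, and 6 of the 8 genes had one (not Krt1 and Krt80). TATANA was found in Krt2, Krt10, Krt76 and Krt77, and in 24.7% of 32851 RefSeq promoters. GGATTA, the core of sites that the GTF2IRD1 protein is known to bind, was found in Krt76 alone, 151 bases before its start, and in 7.06% of all promoters. TGANTCA, the AP-1 motif, and GCCNNNGGC, an AP-2 motif, were found in none of the 6, and in 7.81% and 16.6% of all promoters. A match is a run of letters and is not evidence of binding.

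Krt2 stood at 2546, 3105 and 2312 CPM in WT1, WT2 and WT3, and at 125, 87.2 and 136 CPM in KO1, KO2 and KO3. Every KO library lay far under every WT library, and the lowest WT value was 17.0 times the highest KO value. The means were 2654 ± 407 CPM in WT and 116 ± 25.5 CPM in KO (SD, n = 3), so that the KO mean was 4.37% of the WT mean. In deposited counts this was 51413 to 73031 reads per WT library and 2446 to 2969 per KO library, so Krt2 was low in the KO libraries but well above detection. This is a log2 fold change of -4.52 with a standard error of 0.25, which stayed between -4.64 and -4.29 as each library was left out in turn. Among the 2010 tested genes with a WT mean of at least 100 CPM, 1 had a lower log2 fold change, the oral mucosa keratin Krt13 (-4.53), whose WT mean rests on WT1 as described below. None of the 100-base windows of the Krt2 transcript was shared with another gene's annotated transcripts.

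Krt1, the main type II keratin of the spinous layer, stood at 8034, 9319 and 6706 CPM in WT1 to WT3 and at 22673, 17418 and 14565 CPM in KO1 to KO3. All 3 KO libraries lay above all 3 WT libraries, and the KO mean was 227% of the WT mean. A log2 fold change of 1.18 with a standard error of 0.30 missed the threshold (adjusted p = 0.0584). Krt1 passed with edgeR's exact test (adjusted p = 3.75e-05), with DESeq2 (adjusted p = 6.01e-07) and without KO3 (adjusted p = 0.0190), and over all alternatives other than left-out libraries its adjusted p ranged from 6.01e-07 to 0.0739. Without WT1, WT2, WT3, KO1 or KO2 the adjusted p lay between 0.0849 and 0.208.

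Krt10, the type I partner of both, stood at 8999, 9509 and 7637 CPM in WT1 to WT3 and at 16021, 13756 and 10943 CPM in KO1 to KO3. The groups again did not overlap. A log2 fold change of 0.64 with a standard error of 0.27 had an adjusted p of 0.163, and edgeR's exact test (adjusted p = 0.0384) and DESeq2 (adjusted p = 0.00630) called it higher. Krt10 overlaps Gm11940 on the opposite strand, and the strand setting of the counting is not given in the sources used here.

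Krt80, a type II keratin of differentiating cells of many epithelia, stood at 481, 407 and 449 CPM in WT1 to WT3 and at 779, 859 and 619 CPM in KO1 to KO3. It rose in the KO libraries, with a log2 fold change of 0.76, a standard error of 0.17 and an adjusted p of 0.0390. The call was lost when any library other than KO3 was left out. Without WT1, WT2, WT3, KO1 or KO2 the adjusted p lay between 0.0831 and 0.156, while without KO3 it was 0.00375. Krt80 overlaps Gm35853 and Mir1941 on the opposite strand, and 2.46% of its 100-base windows are also found in Gm35853.

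Krt77, a close relative of Krt1, stood at 209, 99.6 and 302 CPM in WT1 to WT3 and at 154, 112 and 157 CPM in KO1 to KO3. Its WT libraries spread over a wider range than its KO libraries and enclosed them. The log2 fold change was -0.53 with a standard error of 0.35 (adjusted p = 0.340), and it ran from -0.80 without WT2 (adjusted p = 0.0920) to -0.13 without WT3 (adjusted p = 0.846). Krt78, a suprabasal type II keratin with a long tail, stood at 153, 147 and 96.1 CPM in WT1 to WT3 and at 221, 186 and 79.9 CPM in KO1 to KO3. KO1 and KO2 lay above the WT libraries and KO3 below them. The log2 fold change was 0.30 with a standard error of 0.35 (adjusted p = 0.594), and without KO3 it was 0.63 (adjusted p = 0.0409). Krt79, known from the infundibulum of hair follicles and the ducts of sebaceous glands, stood at 1202, 1568 and 1450 CPM in WT1 to WT3 and at 1478, 1385 and 1399 CPM in KO1 to KO3. The KO values lay inside the WT range, and the log2 fold change was 0.014 with a standard error of 0.17 (adjusted p = 0.962).

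**Figure D1:**
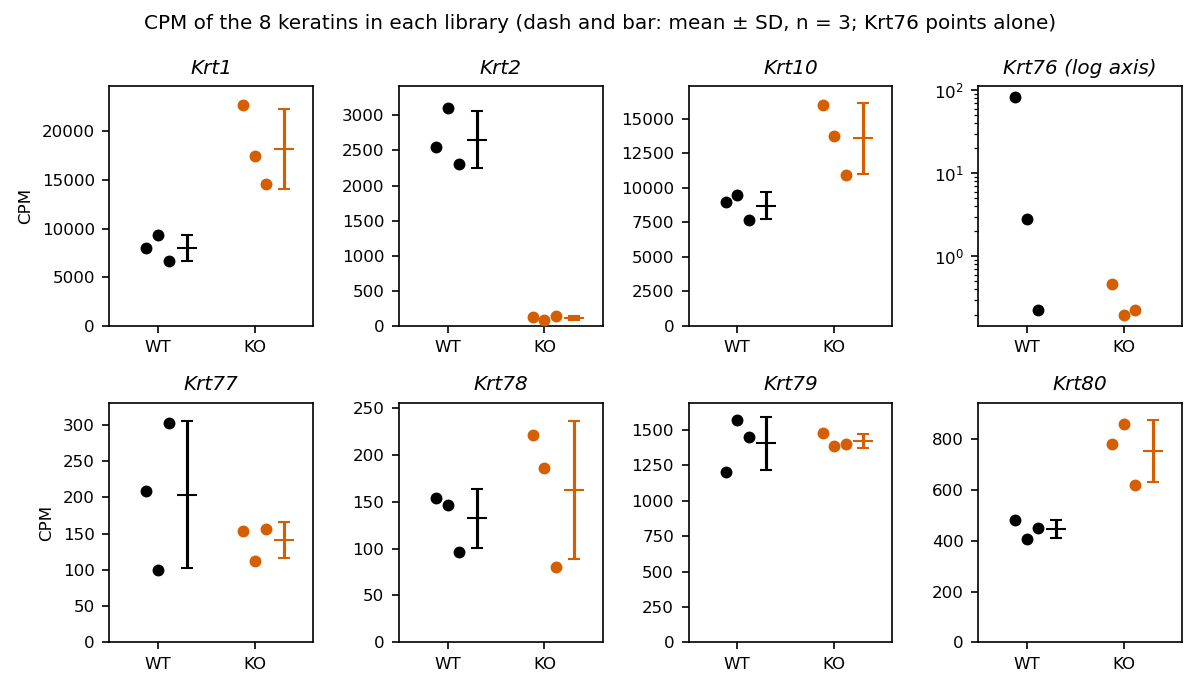
CPM of each of the 8 keratins (vertical axes, one scale per gene) in the 3 WT and 3 KO libraries (points), with mean ± SD beside them except for Krt76, which is shown as points on a log axis. Krt2 lies between 2312 and 3105 CPM in WT and between 87.2 and 136 CPM in KO, while Krt1, Krt10 and Krt80 lie higher in every KO library.

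Of the 6 tested genes other than Krt2, 1 was called higher (Krt80) and 0 lower, beside 4.38% and 2.09% of all tested genes. Unadjusted p-values under 0.05 were found for 3 genes higher and 0 lower, beside 13.5% and 16.0% of all tested genes. EdgeR's exact test and DESeq2 each called 3 higher (Krt1, Krt10, Krt80) and 0 lower. Over all genes the exact test called 1165 of 15009 higher and 1073 lower, and DESeq2 1433 of 15004 higher and 873 lower. The genotypes did not overlap in 3 of the 6, beside 31.5% of all tested genes. With so few genes these shares are a description of the 6 only.

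Krt76, a type II keratin of the hard palate and gum, was not tested because it did not reach 1 CPM in 3 libraries. Its level was 82.8 CPM in WT1, 2.81 CPM in WT2 and 0.225 CPM in WT3, and 0.461, 0.197 and 0.229 CPM in KO1, KO2 and KO3, from counts of 2282, 66 and 5 against 9, 6 and 5. WT1 thus held nearly all of its reads, and WT3 did not differ in level from KO2 and KO3. With no filter on low counts the adjusted p was 0.0523, and DESeq2 gave no adjusted p. The same library stood out in the keratin pair of stratified oral mucosa. Krt4 stood at 1987, 58.3 and 9.40 CPM in WT1 to WT3 and at 115, 39.8 and 36.1 CPM in KO1 to KO3. Krt13 stood at 2805, 111 and 20.1 CPM in WT1 to WT3 and at 77.3, 22.5 and 27.5 CPM in KO1 to KO3. In both genes WT1 lay above and WT3 below all KO libraries, and neither Krt4 (adjusted p = 0.189) nor Krt13 (adjusted p = 0.110) passed edgeR's quasi-likelihood test or DESeq2, while edgeR's exact test called both lower. The median log2 fold change of Krt4 and Krt13 was -3.98 with all libraries and 0.14 without WT1. Krt2 was not high in WT1 in this way, since WT2 held its highest value. What part the oral mucosa keratins of WT1 have in other values was not tested. Without WT1 the log2 fold change was 1.18 in Krt1, 0.66 in Krt10, -0.51 in Krt77 and 0.81 in Krt80.

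**Figure D2:**
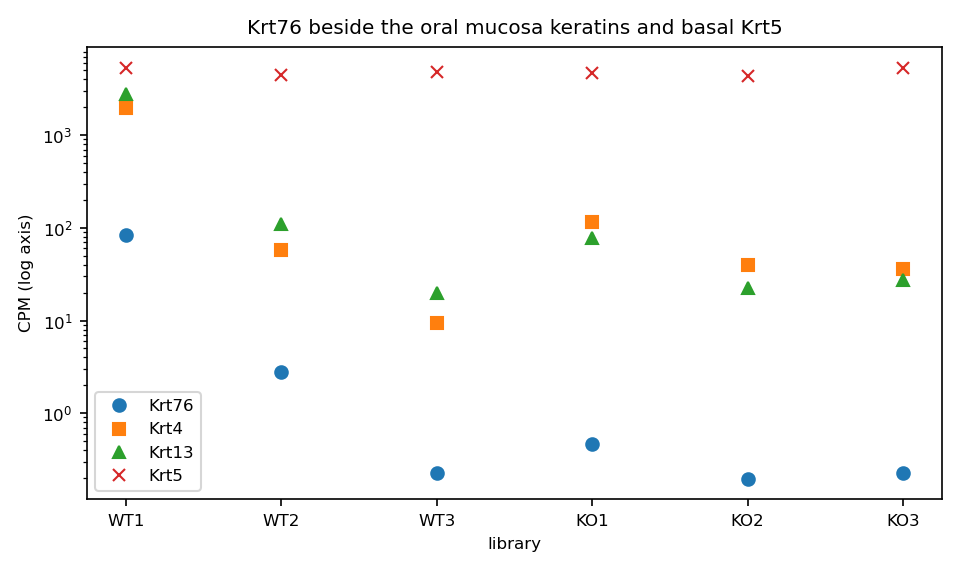
CPM on a log axis of Krt76, the oral mucosa keratins Krt4 and Krt13 and the basal keratin Krt5 in each of the 6 libraries (horizontal axis). Krt76, Krt4 and Krt13 are highest in WT1, at 82.8, 1987 and 2805 CPM, while Krt5 stays between 4331 and 5372 CPM.

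To compare levels between genes, CPM were divided by annotated transcript length (CPM per kb). In WT the order was Krt10 with 4162 ± 462, Krt1 with 3267 ± 532, Krt2 with 1016 ± 156, Krt79 with 671 ± 88.9, Krt80 with 145 ± 12.1, Krt77 with 69.4 ± 34.6, Krt78 with 38.4 ± 9.13 and Krt76 with 12.4 ± 20.3 CPM per kb (SD, n = 3). Krt2 held rank 3 and overlapped neither neighbour, whereas Krt10 overlapped Krt1, and Krt77, Krt78 and Krt76 overlapped in turn. In KO the order was Krt1 with 7421 ± 1675, Krt10 with 6482 ± 1215, Krt79 with 677 ± 24.0, Krt80 with 245 ± 39.8, Krt77 with 48.1 ± 8.55, Krt78 with 47.2 ± 21.4, Krt2 with 44.4 ± 9.77 and Krt76 with 0.128 ± 0.0622 CPM per kb. Krt2 stood at rank 7 in KO, at a level that overlapped those of Krt77 and Krt78. Krt1 and Krt10 overlapped in both genotypes.

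Ratios within a library do not depend on scaling. Krt2 was 10.3, 11.3 and 10.7% of the summed CPM per kb of the 8 keratins in WT1 to WT3 and 0.266, 0.227 and 0.427% in KO1 to KO3. Over the same libraries Krt1 held 34.7 ± 1.51% in WT and 49.4 ± 1.64% in KO, and Krt10 held 44.4 ± 1.14% and 43.4 ± 1.10% (SD, n = 3). The share of Krt1 was thus larger in each KO library, and that of Krt10 overlapped between genotypes. The sum includes Krt2, which was selected for its low KO level, and this raises every other share in KO. The shares therefore do not tell whether Krt10 kept its level relative to the keratins other than Krt2. Krt1 exceeded Krt2 by 3.09 to 3.36 times in the WT libraries and by 114 to 213 times in the KO libraries.

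The ratio of Krt1 to Krt10, per kb, was 0.749 to 0.836 in the WT libraries and 1.08 to 1.21 in the KO libraries. The mean log2 ratio was 0.54 higher in KO, higher in 3 of 3 libraries, with an exact two-sided permutation p of 0.1, the smallest that 3 against 3 libraries allow. The ratio of Krt2 to Krt10 was 0.244 ± 0.0175 in WT and 0.00709 ± 0.00254 in KO. For all 7 type II keratins summed, the ratio to Krt10 was 1.25 ± 0.0577 in WT and 1.31 ± 0.0581 in KO, and the genotypes overlapped. The 7 type II transcripts together stood in nearly the same ratio to Krt10 in both genotypes, with less Krt2 and more Krt1 among them in KO. Krt2 is 1 of the 7, so this summed ratio rests in part on the value for which Krt2 was selected. Whether Krt1 made up for Krt2 was not tested. Pairing of the 7 with Krt10 was not tested, and other type II keratins such as Krt5 were left out of the sum. The 8 keratins together took 2.18 ± 0.389% of all counts in WT and 3.42 ± 0.638% in KO.

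**Figure D3:**
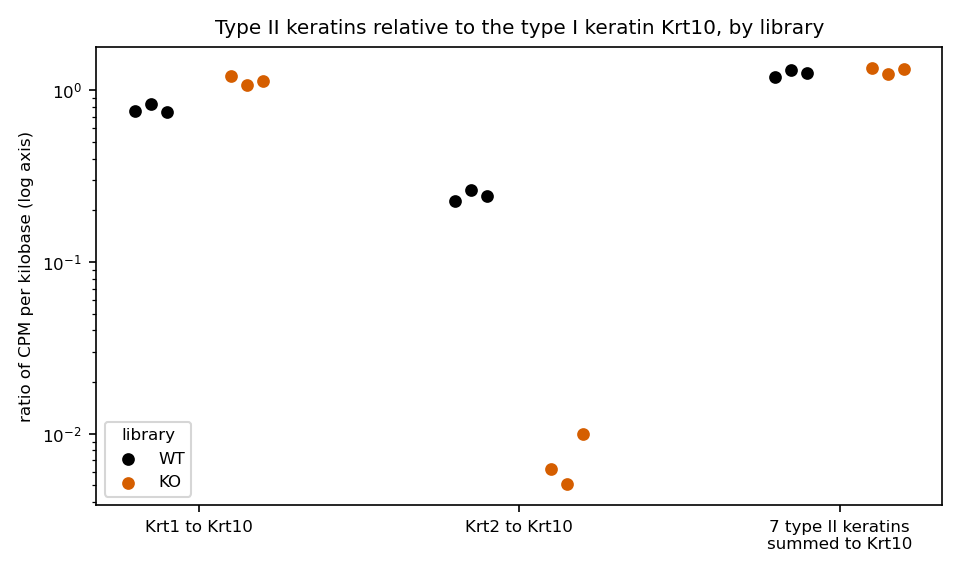
Ratios of CPM per kb on a log axis for Krt1 to Krt10, Krt2 to Krt10 and the 7 type II keratins summed to Krt10, with 1 point per library (WT black, KO orange). The mean Krt2 ratio is 0.244 in WT and 0.00709 in KO, the mean Krt1 ratio 0.782 and 1.14, and the mean summed ratio 1.25 and 1.31.

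The 7 type II genes lie in one keratin cluster on chromosome 15, and Krt10 lies in the type I cluster on chromosome 11 (99385254 to 99389364). Krt2 has Krt73, a keratin of the inner root sheath of hair, 8342 bases to one side and Krt1 27256 bases to the other, followed by Krt77 after 7936 and Krt76 after 14645 bases, all on the minus strand. The log2 fold change was -0.44 in Krt73 (adjusted p = 0.135), -4.52 in Krt2, 1.18 in Krt1 and -0.53 in Krt77, so the nearest gene on either side of Krt2 did not share its change. Farther along, Krt76 (not tested) and Krt4 (-3.43, adjusted p = 0.189) were also lower on average in KO, with the WT values resting on WT1. Of 24 tested genes in the cluster, Krt18 included, the median was -0.53. Krt80 and Krt7, a keratin of simple epithelia (log2 fold change 1.42, adjusted p = 0.00191), rose, and the hair keratin Krt84, the inner root sheath keratin Krt75 and Krt90 fell. Krt84 had a log2 fold change of -0.81 (adjusted p = 0.0158) and Krt75 of -0.71 (adjusted p = 0.0468).

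**Figure D4:**
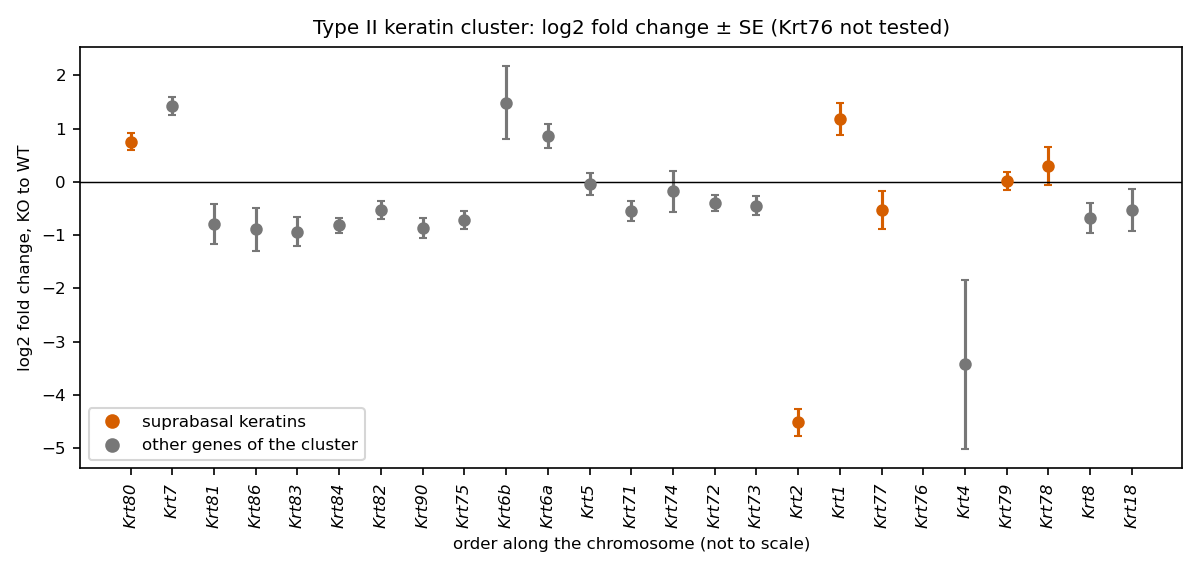
Log2 fold change, KO to WT, with standard error (vertical axis), of the tested genes of the type II keratin cluster in their order along the chromosome (horizontal axis, not to scale), with the suprabasal keratins in orange. Krt2, at -4.52, stands between Krt73 at -0.44 and Krt1 at 1.18.

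By protein sequence, translated from the GENCODE M21 transcripts, Krt2 was most like Krt1 among the 8, with 68.2% identical residues of 626 aligned. It shared 62.5% with Krt76, 61.7% with Krt77, 57.5% with Krt79, 53.2% with Krt78, 47.4% with Krt10 and 42.7% with Krt80. Krt2, Krt10 and Krt1 are the most glycine-rich of the 8, with 25.7, 24.4 and 21.7% glycine in 707, 561 and 637 residues, and glycine loops are known at the ends of these proteins. Krt80 has 5.53% glycine in 452 residues. Of the 3 glycine-rich keratins, Krt2 was lower and the other two were higher in every KO library.

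Likeness of profile was measured as the root mean square difference of log2(CPM + 0.5), centred for each gene, over the 6 libraries. The genes nearest to Krt2 were 1100001G20Rik (1.12), Acsm1 (1.25), Cyp2w1 (1.27), Hspb7 (1.28) and Cyp2f2 (1.33). None was near, since the fold change of Krt2 exceeded theirs. 1100001G20Rik stood at 25.7, 28.0 and 47.0 CPM in the WT libraries and 4.30, 4.27 and 8.73 CPM in the KO libraries. The genes nearest to Krt1 were Car2 (0.0842), Klk7 (0.103), Tfcp2 (0.109), Esd (0.110) and Scml2 (0.111). Klk7 is a protease that cleaves the junctions of cornified cells. Among the genes nearest to Krt10 were Smim13 (0.0486), Twf1 (0.0511), Blmh (0.0690) and Ddx19b (0.0694). Blmh encodes a protease of the upper epidermis that processes filaggrin peptides. Among the 8 keratins the closest pair was Krt10 and Krt80 (0.181), followed by Krt1 and Krt10 (0.281), and Krt2 lay 2.14 to 2.86 from the 6 other tested members.

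The layers around the suprabasal keratins were described with gene lists. Over all tested genes 4.38% rose and 2.09% fell, and 13.5% and 16.0% did at an unadjusted p under 0.05. Among the 3 basal keratins 0 were called by edgeR, with log2 fold changes of -0.038 for Krt5, 0.15 for Krt14 and -0.36 for Krt15, of which 1 (Krt15) had an unadjusted p under 0.05, and edgeR's exact test and DESeq2 called 0. Of the 4 keratins of stressed or wounded epidermis Krt16 rose, with 393, 182 and 202 CPM in WT1 to WT3 and 1582, 824 and 591 CPM in KO1 to KO3 (log2 fold change 1.95, adjusted p = 0.0365). Krt6a had a log2 fold change of 0.86 (adjusted p = 0.0641), Krt6b of 1.48 (adjusted p = 0.188) and Krt17 of 0.20 (adjusted p = 0.507), and the list's median was 1.17, where that of all tested genes was -0.023.

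Of 19 tested spinous layer genes 3 rose and 0 fell (edgeR, with 8 higher and 0 lower at an unadjusted p under 0.05), with a median of 0.43. Among all tested genes 4.38% rose and 2.09% fell. The 3 spinous layer genes were the fatty acid carrier Fabp5 (log2 fold change 1.26, adjusted p = 0.0116), the desmosomal cadherin Dsg1b (1.27, adjusted p = 0.0248) and the protease inhibitor Serpinb2 (1.30, adjusted p = 0.0433). Of 23 tested granular and cornified layer genes 6 rose and 0 fell (11 higher and 1 lower at an unadjusted p under 0.05, where 13.5% and 16.0% of all tested genes were), with a median of 0.44. The 3 with the lowest p were the protease Klk5 (1.03, adjusted p = 0.0143), the lipid transporter Abca12 (1.79, adjusted p = 0.0231) and Klk7 (1.22, adjusted p = 0.0285). Krt2 was thus low in libraries in which 0 tested genes of these 2 lists were called lower, by edgeR's quasi-likelihood or exact test or by DESeq2. Of all genes the exact test called 1073 of 15009 lower, and DESeq2 873 of 15004. Without KO3 the lists held 9 and 13 higher genes, where 2496 of all 14802 genes tested in that setting were called higher and 2395 lower. Over all 162 list genes other than the 8 keratins, 13 were called higher and 10 lower with all libraries. Leaving out single libraries gave from 3 higher (without WT3) to 33 (without KO3) and from 0 lower (without KO2) to 46 (without KO3).

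Of 30 tested transcription factors of epidermal stratification 0 rose and 1 fell, Maf, which acts in terminal differentiation, with 189, 148 and 172 CPM in WT1 to WT3 and 82.4, 92.6 and 100.3 CPM in KO1 to KO3 (log2 fold change -0.89, adjusted p = 0.0116). At an unadjusted p under 0.05, 4 were higher and 4 lower, near the 13.5% and 16.0% of all tested genes. At the adjusted threshold 4.38% of all tested genes rose and 2.09% fell. DESeq2 called 2 of these factors higher and 1 lower, beside 1433 and 873 of 15004 genes in all. Of 17 tested genes of retinoid handling, a vitamin A pathway known to restrain epidermal differentiation, 0 rose and 2 fell. These were Cyp26b1, which degrades retinoic acid (log2 fold change -0.77, adjusted p = 0.0324), and Aldh1a2, which makes it (-0.80, adjusted p = 0.0478). At an unadjusted p under 0.05, 2 were higher and 5 lower. The exact test of edgeR called 2 higher and 2 lower, beside 1165 and 1073 of all 15009 tested genes. DESeq2 called 2 higher and 3 lower, beside the same 1433 and 873 of 15004.

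**Figure D5:**
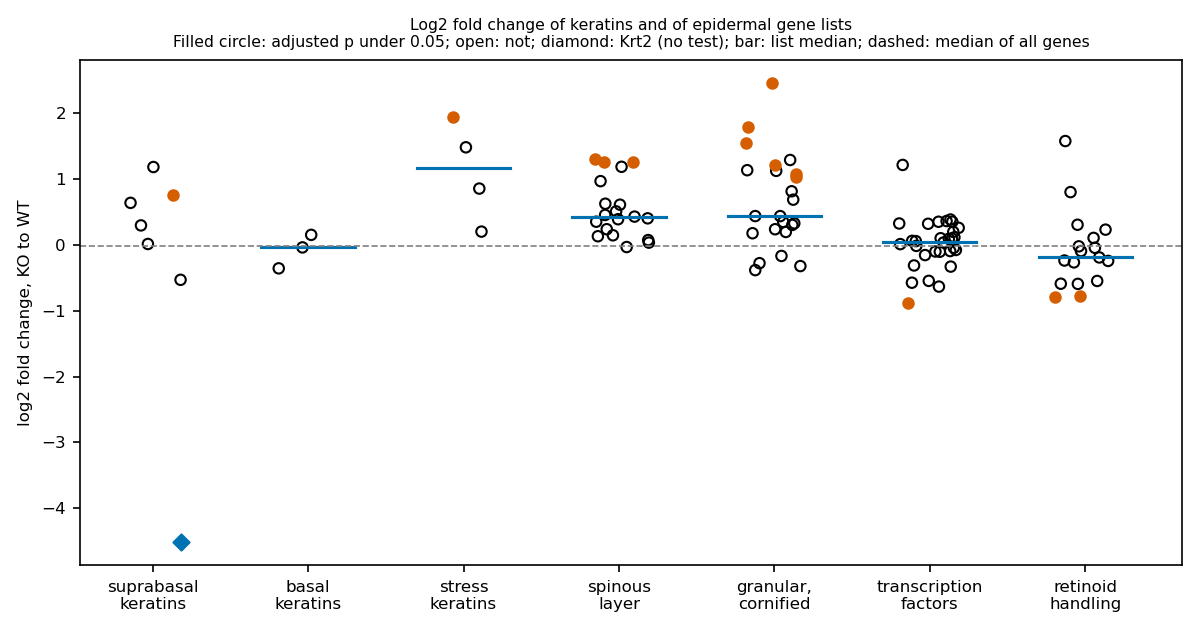
Log2 fold change, KO to WT (vertical axis), of the tested suprabasal keratins and of 6 gene lists (horizontal axis). Each point is a gene, filled circles passed an adjusted p of 0.05, the diamond is Krt2 (no test), bars are list medians and the dashed line is the median of all tested genes. Krt2 lies at -4.52, below every gene of the 6 lists, whose medians run from -0.19 to 1.17.

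Markers of muscle, hair and fibroblasts in the lip mostly had negative log2 fold changes, though the fibroblast sums overlapped between genotypes. Among all 15009 tested genes 2.09% were called lower, and 16.0% were lower at an unadjusted p under 0.05. The exact test of edgeR called 1073 of them lower. All 12 skeletal muscle markers had negative log2 fold changes (median -1.03, 2 called lower, and 9 by edgeR's exact test), and their summed level was 13209 to 16761 CPM in WT and 6742 to 10256 CPM in KO. All 12 tested hair shaft and follicle markers were negative (median -0.78, 1 called lower, and 7 by edgeR's exact test), with sums of 3471 to 4920 CPM in WT and 1328 to 3005 CPM in KO. Of 8 fibroblast markers 7 were negative (median -0.37, 0 called, 1 lower at an unadjusted p under 0.05, and 0 by DESeq2 and the exact test), with sums of 6577 to 8526 CPM in WT and 2879 to 6878 CPM in KO. Of 9 inner root sheath keratins 8 were negative (median -0.44, 1 called lower), with sums of 5444 to 6865 CPM in WT and 3758 to 4762 CPM in KO. No tested marker was at 0 in any library. Their part in the changes of Krt1, Krt10 and Krt80 was not tested. Levels were also set against the basal keratin Krt5 in the same library, as a ratio of CPM not divided by length. Krt1 was 1.66 ± 0.362 in WT and 3.87 ± 1.04 in KO. Krt80 was 0.0912 ± 0.00229 and 0.161 ± 0.0406, and Krt2 was 0.549 ± 0.122 and 0.0242 ± 0.00355.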

How the data were processed

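RNA of the top lip of each mouse gave 1 paired-end library. The authors mapped reads to GRCm38 with TopHat2 (2.0.8) and Bowtie2 (2.1.0), per the submitters' processing notes, and deposited unnormalized counts per gene from HTSeq. The strand setting is not given in the sources used here. All 6 columns were used (0 left out).

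Genes that reached 1 CPM in 3 or more libraries were tested in R 4.3.3 with edgeR 4.0.16 (TMM, glmQLFit, glmQLFTest) at a Benjamini-Hochberg adjusted p of 0.05. A standard error is the log2 fold change divided by the root of F. Alternatives were edgeR's exact test, DESeq2 1.42.0, 4 other scalings, 2 other filters, a threshold of 0.1, a replicate block and each library left out. The procedure was tested on simulated data. Members and lists were chosen with earlier results of these data known. Named genes are the 8 keratins, Gtf2ird1, up to 3 called genes per list and direction, all members of lists under 6, cluster members, and the 5 nearest profiles of Krt1, Krt2 and Krt10 (1 gene is not reported here). Krt13 and the remaining markers belong to such lists. Total counts per library ran from 20164081 to 29491767. Sequences and lengths come from GENCODE M21 (24858 of 26814 symbols found) and RefSeq, and figures from matplotlib 3.10.9.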

Additional observations from a re-analysis of the deposited data

How the results depend on the processing

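The log2 fold change of Krt2 lay between -4.57 and -4.47 under the 10 alternatives and between -4.64 and -4.29 without single libraries. The number of other keratins called higher, 1 of 6, was 2 at an adjusted p under 0.1, 3 with edgeR's exact test, 3 with DESeq2, 2 with library size alone, 2 with no filter and 0 to 3 without single libraries. Krt1 crossed the threshold at a log2 fold change of 1.18 with the threshold of 0.1 and with the exact test, 1.22 with DESeq2, 1.16 with library size alone and 1.23 with no filter, and lay between 1.06 and 1.36 without single libraries. Krt10 crossed it with the exact test (0.64) and DESeq2 (0.68). Krt79, near 0 throughout, changed sign with library size alone (-0.00098), with upper-quartile normalization (-0.043) and without WT1 (from -0.090 to 0.16 without single libraries). Without single libraries Krt78 lay between 0.076 and 0.63 and Krt80 between 0.71 and 0.88.

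The correlations of same-numbered deviations were -0.19, 0.29 and 0.31. Differently numbered libraries were not compared, so whether the replicate numbers pair the libraries cannot be told from these values. With the replicate block 0 of the 6 keratins were called, and Krt80 had a log2 fold change of 0.75 (adjusted p = 0.0588), while over all genes the calls went from 657 higher and 314 lower to 580 and 217.

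Of the list genes other than the 8 keratins, 13 were called higher and 10 lower. The counts were 23 and 25 at an adjusted p under 0.1, 26 and 25 with the exact test, 29 and 21 with DESeq2, 20 higher with no filter, 6 lower with DESeq2's size factors, and 3 to 33 higher and 0 to 46 lower without single libraries. Without single libraries the medians that moved beyond the spread between libraries, or changed sign, were those of the basal keratins (-0.11 to 0.083, positive without WT1, KO1 or KO2), the stress keratins (0.88 to 1.69), the oral mucosa keratins (-4.67 to 0.14, positive without WT1), the sebaceous markers (-0.65 to -0.28), the endothelial markers (-0.37 to 0.019, positive without KO1) and the leukocyte markers (-0.11 to 0.25, negative without KO3 or WT2). Those of the hair markers (-1.03 to -0.45), the granular and cornified genes (0.33 to 0.72) and the fibroblast markers (-0.46 to -0.19) kept their sign. Over all genes, the exact test called 1165 higher and 1073 lower, DESeq2 1433 and 873, and leaving out KO3 2496 and 2395. Higher genes made up 67.7% of calls in the main comparison, 79.9% with DESeq2's size factors and 81.3% with no filter. The causes were not tested. At depths of 20164081 to 29491767 counts, Krt76 alone among the 8 had counts as low as 5, beside 2282 in WT1.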

Other observations

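Outside the epidermal layers, Cd207, the marker of Langerhans cells of the epidermis, had 3.16, 4.29 and 3.55 CPM in WT1 to WT3 and 13.0, 13.3 and 12.4 CPM in KO1 to KO3. All KO values lay above all WT values (log2 fold change 1.81, adjusted p = 0.000932), and Cd207 was the 1 called gene of 6 tested leukocyte markers, whose median was 0.067. Of 8 tested sebaceous gland markers 1 rose and 1 fell, 7 had negative log2 fold changes with 4 lower at an unadjusted p under 0.05, and the median was -0.48. Among all tested genes 4.38% rose and 2.09% fell, and 16.0% were lower at an unadjusted p under 0.05. Scd3, a fatty acid desaturase, had 21.8, 29.0 and 9.31 CPM in WT1 to WT3 and 223, 157 and 167 CPM in KO1 to KO3 (log2 fold change 3.19, adjusted p = 0.00251), and Awat1, a wax ester synthase, had a log2 fold change of -1.09. The 5 endothelial markers had log2 fold changes of -0.63 (Cdh5), -0.30 (Kdr), -0.14 (Tek), -0.094 (Pecam1) and -0.081 (Emcn), and 0 were called (edgeR), with 1 lower at an unadjusted p under 0.05 and 0 by the exact test and DESeq2.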
